A study of Mus musculus with 4 samples.

Results

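Genes of the Wnt signalling pathway were followed across the cells of a muscle that forms ectopic cartilage and bone after injury. The 10 genes were chosen by symbol from the 32285 genes in each library, with earlier results of these data known. They were 6 Wnt ligands (Wnt2, Wnt4, Wnt5a, Wnt5b, Wnt10b and Wnt11), the R-spondins Rspo1 and Rspo3, and the response genes Axin2 and Lef1. All 10 were present in all 4 libraries and are described below by their raw counts of unique molecular identifiers (UMIs, each standing for 1 captured RNA molecule).

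Wnt proteins are secreted lipid-modified ligands that bind Frizzled receptors together with co-receptors. In the canonical branch the signal stabilises β-catenin, which enters the nucleus and acts with TCF and LEF factors on target genes, whereas ligands such as Wnt5a and Wnt11 are best known for β-catenin-independent signalling that shapes cell polarity and movement. R-spondins are secreted proteins that strengthen a Wnt signal by sparing Frizzled receptors from removal. Axin2 is a direct target of the canonical branch and encodes a scaffold that feeds back to limit it, and Lef1 encodes one of the nuclear factors of the branch, which lymphocytes also use during their development. In cartilage and bone, Wnt signals influence the commitment of mesenchymal progenitors, and Wnt5a and Wnt5b are known regulators of chondrocyte maturation.

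The libraries came from tibial muscle of Nse-Bmp4 mice on the C57BL/6 background, 6 to 8 weeks old, a line in which a rat neuron-specific enolase promoter drives murine Bmp4, so that muscle injury is followed by heterotopic ossification. There were 4 single-cell RNA libraries, 1 each from uninjured muscle and from muscle taken 1, 3 or 7 days after an injection of cardiotoxin (days post injury, dpi), and each library pooled 3 muscles digested with collagenase. The uninjured muscle carried the transgene as well, so no library came from a mouse without it. The time course therefore has 1 library per time point and no replicate: no test between time points was possible, and every interval given is a 95% exact interval that covers counting error only.

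The 4 libraries held between 11722 and 23752 barcodes and between 91146335 and 129007669 UMIs, and 52852 of 62665 barcodes passed the cell filters. The median depth of kept cells fell across the series from 8638 UMIs per cell in the uninjured library to 5896, 4338 and 3049 UMIs at 1, 3 and 7 dpi, so shares of cells with a UMI are not comparable between libraries as they stand. Each level is in CPM, that is, UMIs of the gene per 1000000 UMIs counted in the cells described. Any pair of libraries shared between 30 and 95 cell barcodes. Cells were sorted into 16 classes by 8 markers each, none of them one of the 10 genes, and 47297 cells (89.5%) joined a class. The mesenchymal class, defined by genes such as Prrx1, Pdgfra and Twist2, held 8318, 3761, 5948 and 9992 cells in the order uninjured, 1, 3 and 7 dpi, and the chondrocyte class, defined by genes such as Acan and Col2a1, held 3900 cells, all at 7 dpi.

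The genes lie on 8 chromosomes of the mouse assembly GRCm38, and all 10 are annotated as protein-coding. Lef1 spans chr3:131110471-131224356, Rspo1 chr4:124986430-125009099, Wnt4 chr4:137277489-137299726, Wnt2 chr6:17988940-18030585, Wnt5b chr6:119432531-119544347, Wnt11 chr7:98835112-98855195, Rspo3 chr10:29452416-29535867, Axin2 chr11:108920349-108950783, Wnt5a chr14:28504750-28527448 and Wnt10b chr15:98770712-98778150. Wnt2, Wnt5b, Wnt10b and Rspo3 are on the minus strand and the other 6 on the plus strand.

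To show the region from which the canonical target Axin2, the ligand with the largest fall over the time course (Wnt11) and the ligand with the largest share of its UMIs in one mesenchymal state of uninjured muscle (Wnt10b) are transcribed, the 250 bases upstream of the start site are printed for Axin2 (chr11:108920099-108920348, plus strand), Wnt11 (chr7:98834862-98835111, plus strand) and Wnt10b (chr15:98778151-98778400, minus strand), from RefSeq on GRCm38.p6 and written 5′ to 3′ along the gene. Capitals mark the TCF/LEF core motif CTTTGA or its reverse complement TCAAAG.
Axin2: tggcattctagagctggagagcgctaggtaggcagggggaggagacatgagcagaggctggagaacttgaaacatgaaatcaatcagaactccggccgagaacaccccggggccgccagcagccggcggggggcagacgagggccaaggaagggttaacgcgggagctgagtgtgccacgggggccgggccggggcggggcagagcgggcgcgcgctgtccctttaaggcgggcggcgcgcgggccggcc
Wnt11: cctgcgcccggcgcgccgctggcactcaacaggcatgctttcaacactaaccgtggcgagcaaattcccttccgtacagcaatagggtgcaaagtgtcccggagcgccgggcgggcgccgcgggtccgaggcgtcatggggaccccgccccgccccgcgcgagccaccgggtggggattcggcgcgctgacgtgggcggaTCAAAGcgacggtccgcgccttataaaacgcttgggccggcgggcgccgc
Wnt10b: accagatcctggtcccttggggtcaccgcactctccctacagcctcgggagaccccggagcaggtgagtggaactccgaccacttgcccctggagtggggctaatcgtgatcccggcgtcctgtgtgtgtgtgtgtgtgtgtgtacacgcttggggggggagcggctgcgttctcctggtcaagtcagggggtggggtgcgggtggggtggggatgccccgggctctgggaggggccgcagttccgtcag
Windows of 250 bases were at hand for 8 of the 10 genes, 14 windows in all, and 3 of these windows, 1 each of Lef1, Wnt5b and Wnt11, held the motif on either strand. Over all 32851 windows of the same length, 4544 (13.8%) held it. The match in Wnt11 is a description of the letters and not of a binding site, and the absence of these letters from the Axin2 and Wnt10b windows says nothing about any factor there.

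Most of the ligand and R-spondin RNA was counted in mesenchymal cells, the class with the most UMIs of all genes in every library. That class gave 78341964, 35276338, 55197213 and 58483886 UMIs in the order uninjured, 1, 3 and 7 dpi. T cells gave 1487982, 3295628, 2868127 and 1730390 UMIs. The shares below therefore depend on class size as well as on level. Of all UMIs of each gene in kept cells, the mesenchymal class held 91.5% for Wnt2, 90.8% for Wnt10b, 90.7% for Wnt5a, 86.9% for Wnt11, 86.2% for Rspo3 and 71.3% for Rspo1. Macrophages held 10.5% of the Rspo1 UMIs. By level, Rspo1 was higher in macrophages and dendritic cells without a Cd209a UMI than in mesenchymal cells of every library. It was there at 3.44, 1.74, 1.17 and 3.35 CPM, from 7, 24, 7 and 5 UMIs, against 1.84, 0.652, 0.761 and 1.52 CPM. Wnt5b was split between mesenchymal cells (63.9% of 2081 UMIs) and chondrocytes (26.8%), and Wnt4 was the most dispersed ligand, with 44.8% of its 1101 UMIs in mesenchymal cells. The response genes were distributed differently: 49.2% of the 1592 Axin2 UMIs came from mesenchymal cells and 23.7% from T cells, and only 5.58% of the 3727 Lef1 UMIs came from mesenchymal cells against 63.4% from T cells.

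Mature B, NK and neutrophil cells served as a measure of background for the ligands. There the level of Wnt2 was 1.60, 0.122, 0.734 and 0 CPM in the order uninjured, 1, 3 and 7 dpi, and that of Wnt5a 0.800, 0.366, 0.978 and 2.40 CPM, against 12.6 CPM or more for both ligands in mesenchymal cells of every library. In the uninjured library 44.9% of mesenchymal cells had a Wnt5a UMI (median depth 9169 UMIs) and 0.276% of these leukocytes did (median depth 2626 UMIs). Macrophages also held little Wnt2, with 3, 0, 1 and 2 UMIs in the 4 libraries. Wnt4 stood closer to background. It was at 0, 0.853, 1.47 and 2.40 CPM in mature B, NK and neutrophil cells, from 0, 7, 6 and 4 UMIs. In mesenchymal cells it was at 1.51, 1.93, 1.85 and 3.51 CPM.

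**Figure D1:**
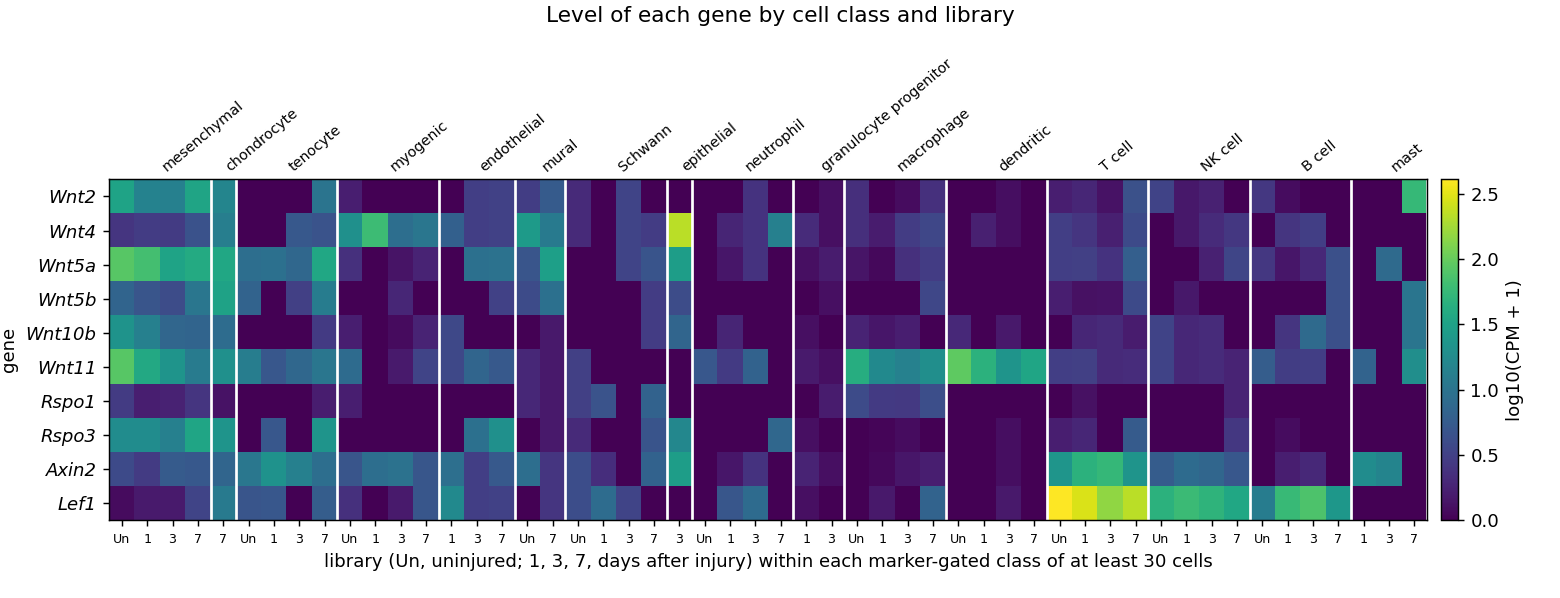
Level of each of the 10 genes, as log10(CPM + 1), in each marker-gated class of at least 30 cells and each library (Un, uninjured; 1, 3 and 7, days after injury). Lef1 is brightest in T cells, where it ranged from 149 to 405 CPM, and Wnt11 is bright in mesenchymal and dendritic cells, between 21.2 and 91.6 CPM in the latter.

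At 1 dpi, 3 of the 9 members with enough UMIs in mesenchymal cells were at less than 1/2 of their uninjured level and 0 were past 2-fold higher. Lef1, with 16 and 19 UMIs, had too few to be called, and its ratio was 2.64 (1.29 to 5.48). Wnt2, a ligand of the canonical branch, was counted at 31.7 CPM (30.5 to 33.0) in the uninjured library and at 13.2 CPM (12.04 to 14.5) at 1 dpi, 2.40-fold lower (2.17 to 2.66). Wnt11 was at 83.5 CPM (81.5 to 85.5) and then at 36.6 CPM (34.7 to 38.7), 2.28-fold lower (2.15 to 2.42). Rspo1 went from 1.84 to 0.652 CPM, a difference that rests on 144 and 23 UMIs.

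The other 6 members with enough UMIs moved by less than 2-fold between these libraries. Wnt5a was at 83.7 and 67.3 CPM and Wnt10b, a canonical ligand known for restraining fat cell formation, at 20.8 and 12.8 CPM. Rspo3 was at 17.4 CPM in both libraries, with a ratio of 1.00. Across all 13852 genes with at least 50 UMIs over both libraries, 4.22% were past 2-fold lower and 8.27% past 2-fold higher, and the 9 members had a median log2 ratio of −0.65 against 0.17 for all genes.

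Axin2, the canonical target, was higher in mesenchymal cells at 3 dpi than at 1 dpi. Its level was 2.85 CPM (2.49 to 3.25) in uninjured muscle, 1.81 (1.40 to 2.32) at 1 dpi, 4.57 (4.02 to 5.17) at 3 dpi and 4.17 (3.67 to 4.73) at 7 dpi. It was the only member past 2-fold higher at 3 dpi over 1 dpi, by 2.52-fold (1.91 to 3.37), a step made by 6.00% of 13728 genes. The intervals at 1 dpi and at 3 dpi lay on either side of the uninjured level.

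Wnt5a and Wnt10b were the members past 2-fold lower in the same step, as were 5.47% of all genes. Wnt5a fell from 67.3 CPM (64.6 to 70.0) to 31.9 CPM (30.5 to 33.5), 2.11-fold, and Wnt10b from 12.8 (11.6 to 14.0) to 6.29 CPM (5.64 to 6.98), 2.03-fold. Both stood close to the 2-fold line, and with each cell thinned to 1000 UMIs their log2 ratios were −0.76 and −0.06 instead of −1.08 and −1.02. The median log2 ratio of the 10 members was −0.21, and that of all genes was −0.08.

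At 7 dpi, the library that held the chondrocyte class, 4 of the 10 members in mesenchymal cells were past 2-fold higher than at 3 dpi and none was past 2-fold lower. Wnt2 returned from 12.6 CPM (11.7 to 13.5) to 32.3 CPM (30.8 to 33.7), within a ratio of 1.02 of the uninjured level. Wnt5b, a ligand of cartilage, rose from 3.04 (2.60 to 3.54) to 9.66 CPM (8.88 to 10.49), 3.17-fold (2.67 to 3.79). Its level was higher still in the chondrocytes of that library, and the part of chondrocyte RNA in this rise was not tested. Rspo3, the R-spondin known for potent canonical activity, rose from 12.7 (11.8 to 13.7) to 33.4 CPM (31.9 to 34.9), 2.63-fold. After thinning each cell to 1000 UMIs the log2 ratio of Rspo3 was 0.95 in place of 1.39, under the 2-fold line, and 2 members (Wnt2 and Wnt5b) were past 2-fold higher, Lef1 having too few UMIs left. Of all 14382 genes, 10.0% were past 2-fold higher and 6.65% lower, and the median log2 ratio was 0.96 for the members and −0.06 for all genes.

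Lef1 was the fourth member past 2-fold at 7 dpi, with 0.204, 0.539, 0.562 and 2.43 CPM (2.05 to 2.86) across the 4 libraries, from 16, 19, 31 and 142 UMIs. The 8 T cell markers, counted here only at 3 and 7 dpi, summed to 7.77 CPM in the whole class at 3 dpi and to 41.6 CPM at 7 dpi. They summed to 198 CPM in the 125 mesenchymal cells with a Lef1 UMI at 7 dpi and to 39.5 CPM in the mesenchymal cells without one. Among the 8347 mesenchymal cells that had no UMI of any T cell marker Lef1 was at 1.53 CPM (1.20 to 1.92), and among the 5701 such cells at 3 dpi at 0.192 CPM (0.0922 to 0.354). This split was chosen after the values were seen, and the parts of T cell RNA and of chondrocyte RNA in the Lef1 counts were not tested.

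Wnt11 did not take part in the return at 7 dpi. Its level in mesenchymal cells was 83.5, 36.6, 21.6 and 11.2 CPM (10.4 to 12.1) in the order uninjured, 1, 3 and 7 dpi, lower in each library than in the one before, and at 7 dpi it was 7.45-fold (6.88 to 8.09) under the uninjured level. Wnt10b at 5.88 CPM (5.28 to 6.54) remained 3.54-fold and Wnt5a at 37.9 CPM (36.4 to 39.5) remained 2.21-fold under it. Wnt4 was counted at 1.51, 1.93, 1.85 and 3.51 CPM and Rspo1 at 1.84, 0.652, 0.761 and 1.52 CPM, the ratio of Rspo1 at 7 over 3 dpi lying at the 2-fold line (log2 ratio 1.00, from 42 and 89 UMIs).

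**Figure D2:**
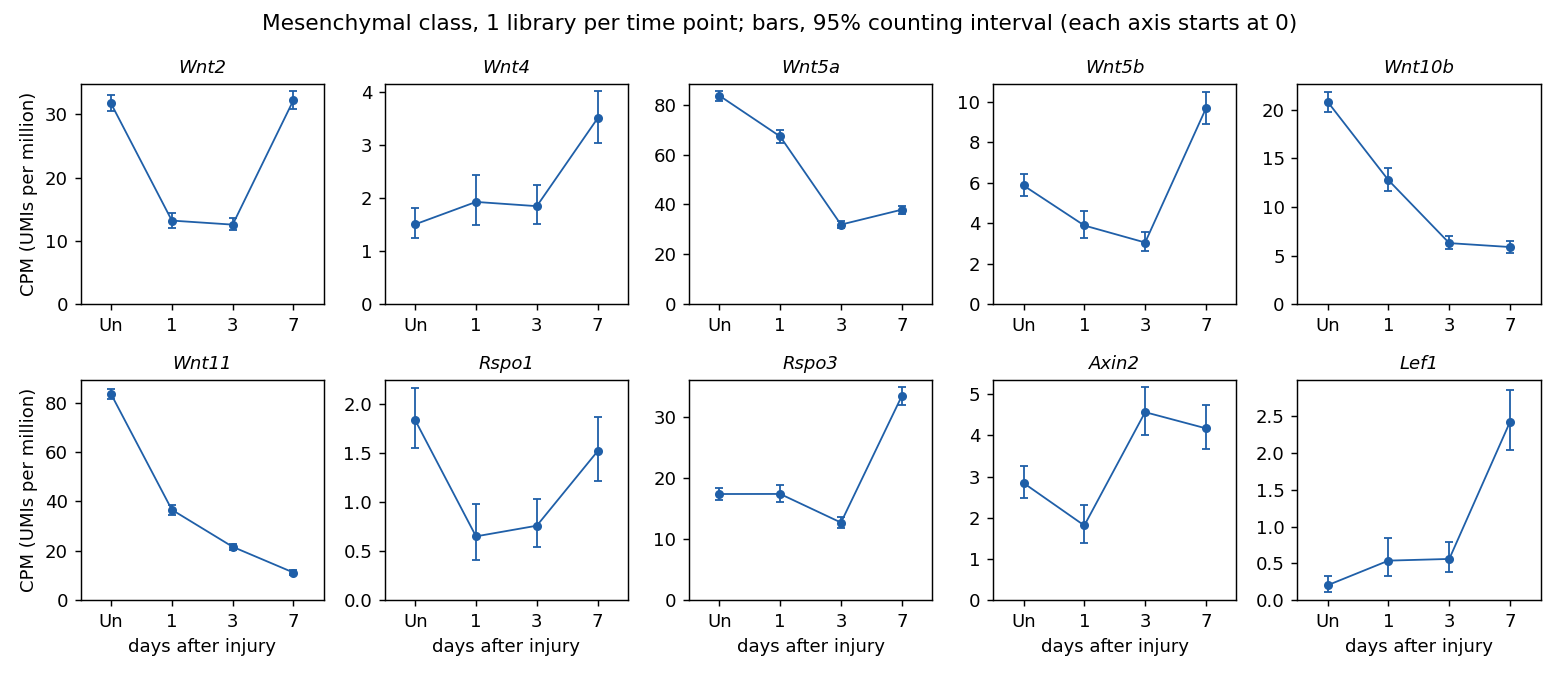
CPM of each of the 10 genes in the mesenchymal class against days after injury (Un, uninjured), 1 library per point, with bars for the 95% counting interval and each axis starting at 0. Wnt11 descends through all 4 libraries from 83.5 to 11.2 CPM, whereas Wnt2 dips at 1 and 3 dpi and stands at 32.3 CPM at 7 dpi.

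The mesenchymal class changed in make-up over the same days. Adventitial cells, gated by Pi16, Dpp4, Sema3c and Cd55 and known as progenitors of connective tissue around vessels, were 38.2% of mesenchymal cells in uninjured muscle and 29.3%, 21.1% and 6.60% at 1, 3 and 7 dpi. Interstitial cells, gated by Smoc2, Col15a1, Hsd11b1 and Lpl, were 54.0%, 59.8%, 49.1% and 14.4%. Osteochondral progenitors, gated by Lrrc15, Tnn, Cthrc1 and Adam12, numbered 5 and 14 cells in the first libraries, then 595 at 3 dpi and 4669 (46.7%) at 7 dpi. The levels over the whole class therefore combine changes within states with changes in their shares. Mesenchymal cells with too few markers of any state, or level between states, joined none, and were 7.81%, 10.6%, 19.75% and 32.3% of the class. The median depth of the class fell from 9169 UMIs in uninjured muscle to 3734 UMIs at 7 dpi. The part of depth in the shares of states was not tested.

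In uninjured muscle Wnt2 and Wnt10b RNA lay mostly in the adventitial state. Wnt2 was there at 72.9 CPM (69.9 to 75.9) in adventitial cells and 1.86 CPM (1.47 to 2.33) in interstitial cells, a ratio of 39.1 (31.1 to 49.9), and Wnt10b was at 50.1 CPM (47.7 to 52.7) and 0.720 CPM (0.482 to 1.03), a ratio of 69.6 (48.3 to 104). The interstitial levels were close to those of the background leukocytes in that library, 1.60 CPM for Wnt2 and 0.800 CPM for Wnt10b. Adventitial cells, 38.2% of the class, held 91.6% of its Wnt2 UMIs and 95.8% of its Wnt10b UMIs. At 3 dpi they held 46.0% and 81.8%, and at 7 dpi, as 6.60% of the class, 26.3% and 25.9%. Osteochondral progenitors, 46.7% of the class and 55.4% of its UMIs at 7 dpi, then held 37.7% and 48.3%. Mesenchymal cells without a state then held 32.3% and 23.8%. At 7 dpi Wnt2 was at 21.9 CPM in the progenitors and 108.9 CPM in adventitial cells, and Wnt10b at 5.125 and 19.58 CPM. The ratios of CPM of adventitial over interstitial cells were smaller later, at 36.2, 12.4 and 11.9 for Wnt2 and 60.2, 39.3 and 21.7 for Wnt10b at 1, 3 and 7 dpi. Cells with either ligand were common in the state: 37.1% of uninjured adventitial cells had a Wnt2 UMI and 33.2% a Wnt10b UMI, against 1.29% and 0.557% of interstitial cells.

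In all, 5 members were past 2-fold higher in adventitial than in interstitial cells of uninjured muscle and 1 was past 2-fold lower, beside 6.25% and 10.8% of all 12948 genes with enough UMIs. The others on the high side were Wnt5b (11.6 against 1.96 CPM, ratio 5.91), Axin2 (4.29 against 1.79 CPM, ratio 2.40) and Wnt11 (119 against 57.1 CPM, ratio 2.09). Wnt4 was the member on the low side, at 0.897 against 1.91 CPM from 28 and 77 UMIs. The background leukocytes had 0 Wnt4 UMIs in that library, which allows levels up to 2.95 CPM. The median log2 ratio was 1.06 over the 9 members tested and −0.11 over all genes.

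Within the adventitial state Wnt2 and Wnt10b parted at 7 dpi. Wnt2 was at 72.9, 36.2, 31.5 and 109 CPM (99.5 to 119) in the 4 libraries, a 3.46-fold rise from 3 to 7 dpi (3.00 to 3.99), while Wnt10b was at 50.1, 36.1, 28.1 and 19.6 CPM (15.7 to 24.1). The share of adventitial cells with a Wnt2 UMI after thinning to 1000 UMIs was 7.75%, 3.82%, 3.38% and 6.84%, so that the uninjured and 7 dpi libraries stood in the other order than by CPM. Wnt11 went down in both states, from 119 to 27.3 CPM in adventitial and from 57.1 to 14.5 CPM in interstitial cells between uninjured muscle and 7 dpi. Axin2 was 3.66-fold (2.32 to 5.98) higher at 3 than at 1 dpi in adventitial cells, from 25 and 83 UMIs.

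Osteochondral progenitors, which gave 55.4% of the UMIs of the mesenchymal class at 7 dpi, held 61.3% of its Rspo3 UMIs and 60.0% of its Wnt5b UMIs. Rspo3 was at 6.93 CPM (5.48 to 8.65) in these cells at 3 dpi and at 37.0 CPM (34.9 to 39.1) at 7 dpi, and Wnt5b at 2.67 (1.80 to 3.81) and 10.47 CPM (9.38 to 11.6). In interstitial cells Rspo3 was at 14.3, 12.6, 12.7 and 27.5 CPM and in adventitial cells at 22.5, 26.5, 17.9 and 11.4 CPM, so the state with the higher level in uninjured muscle had the lower one at 7 dpi. The progenitors at 3 dpi were deep (median 18678 UMIs per cell against 4467 at 7 dpi), and the part of this in the result was not tested. The comparisons within states were set after the values by class had been seen.

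**Figure D3:**
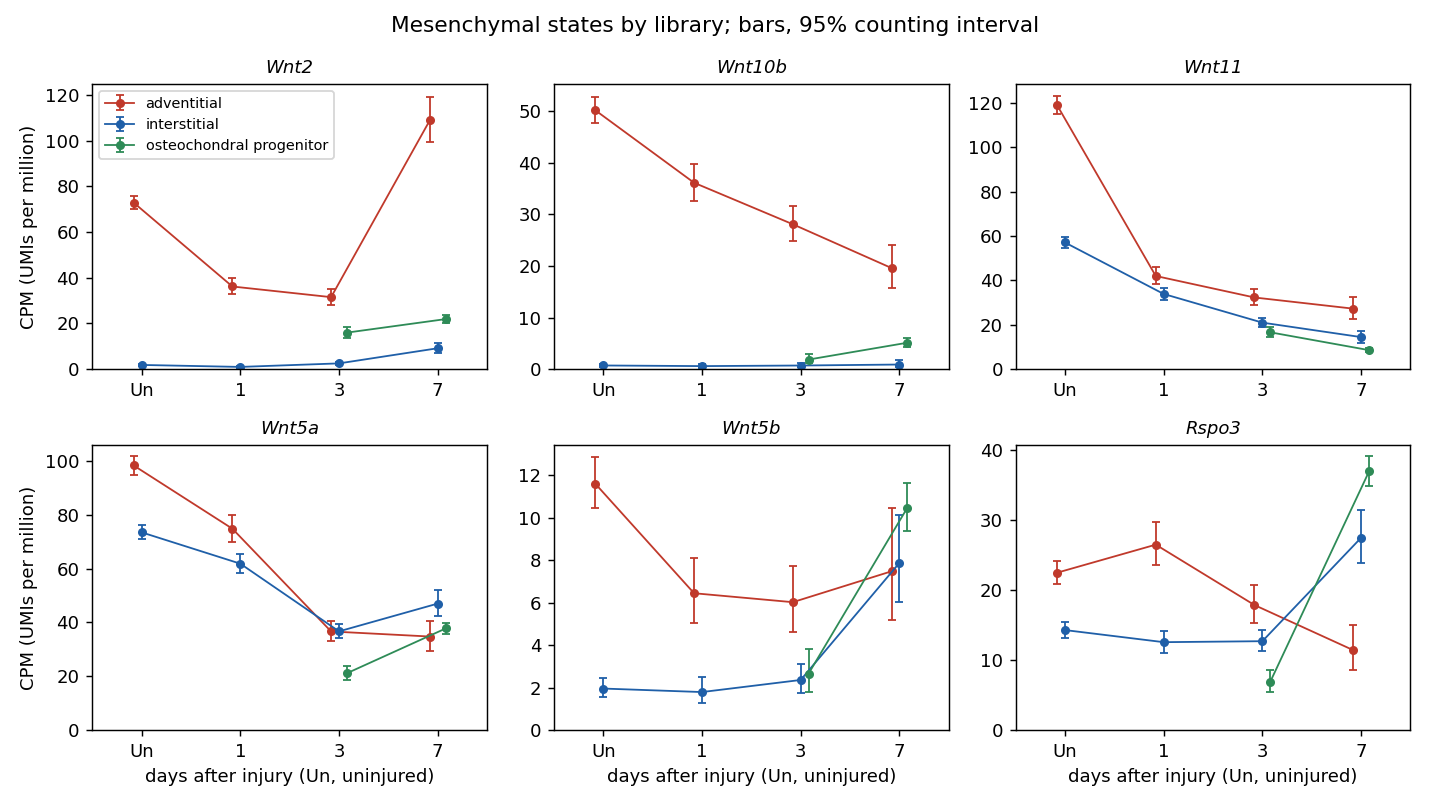
CPM of selected members in the mesenchymal states by library, with bars for the 95% counting interval. The adventitial line of Wnt2 lies far above the interstitial line in every library and reaches 109 CPM at 7 dpi, and the adventitial line of Wnt10b descends from 50.1 to 19.6 CPM.

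Cycling mesenchymal cells, those with at least 2 of Mki67, Top2a, Birc5 and Cdk1, rose from 1.15% of the class in uninjured muscle to 3.32%, 14.4% and 19.0%. With these cells left out, Axin2 at 3 dpi was still 2.80-fold (2.08 to 3.80) above 1 dpi, and Wnt11 at 7 dpi was at 10.7 CPM against 23.3 CPM at 3 dpi, a 2.18-fold difference. In the cells that were not cycling the ratio of 3 over 1 dpi was 0.511 for Wnt5a and 0.591 for Wnt10b, so neither passed 2-fold there.

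In chondrocytes at 7 dpi, 2 ligands and Lef1 were past 2-fold higher than in mesenchymal cells of the same library. Wnt5b was at 30.5 CPM (28.0 to 33.1) in chondrocytes and 9.66 CPM in mesenchymal cells, 3.16-fold higher (2.80 to 3.56). Wnt4, a ligand known in cartilage, kidney and ovary, was at 11.9 CPM (10.4 to 13.6) and 3.51 CPM, 3.41-fold higher (2.80 to 4.14). Lef1 was at 10.7 CPM (9.23 to 12.3) and 2.43 CPM, 4.40-fold higher (3.52 to 5.50). These were the 3 members past 2-fold higher, beside 4.52% of 13899 genes.

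The members past 2-fold lower in chondrocytes were Wnt2 and Rspo1, beside 6.87% of all genes. Wnt2 was at 14.5 CPM (12.8 to 16.4), 2.22-fold below mesenchymal cells. Its log2 ratio of −1.15 became −0.85 with cell limits set on linear counts and −0.99 after centring on the median of all genes, both short of 2-fold. Rspo1 had 6 UMIs in 3900 chondrocytes, 0.329 CPM. The others lay between: Wnt5a at 35.04 CPM against 37.9, Wnt11 at 19.6 against 11.2, Rspo3 at 21.3 against 33.4, Wnt10b at 7.39 against 5.88 and Axin2 at 6.02 against 4.17 CPM. The median log2 ratio of the members was 0.43 and that of all genes −0.17.

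Several members also differed between hypertrophic and other chondrocytes, a comparison for which no share over all genes was computed. The 748 chondrocytes with at least 2 UMIs of Col10a1, the collagen of hypertrophic cartilage, had Wnt5b at 57.3 CPM (49.97 to 65.4) and the other 3152 at 23.4 CPM (20.98 to 26.0), a ratio of 2.45 (2.06 to 2.91). Wnt4 was at 22.3 CPM (17.8 to 27.5) and 9.21 CPM (7.71 to 10.9), a ratio of 2.42 (1.82 to 3.20), and Wnt5a at 53.7 and 30.1 CPM. Lef1 ran the other way, at 3.40 CPM (1.81 to 5.82) in hypertrophic and 12.6 CPM (10.8 to 14.6) in other chondrocytes, 3.70-fold lower (2.11 to 7.09). Rspo3, Axin2 and Wnt10b had ratios between 0.982 and 1.06, each with an interval that spans 1.

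In chondrocytes T cell markers were at about the same level in cells with and without Lef1. The 8 T cell markers summed to 48.8 CPM in the 141 chondrocytes with a Lef1 UMI and to 51.6 CPM in those without, and Lef1 was at 10.6 CPM (8.996 to 12.4) in the 3251 chondrocytes with no T cell marker UMI. Without the cells that held such a UMI on either side the ratio to mesenchymal cells was 6.92 (5.22 to 9.24). With each cell thinned to 1000 UMIs it was smaller, 6.40 CPM (4.10 to 9.52) in chondrocytes and 4.11 CPM (2.92 to 5.62) in mesenchymal cells from 24 and 39 UMIs, intervals that overlap.

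**Figure D4:**
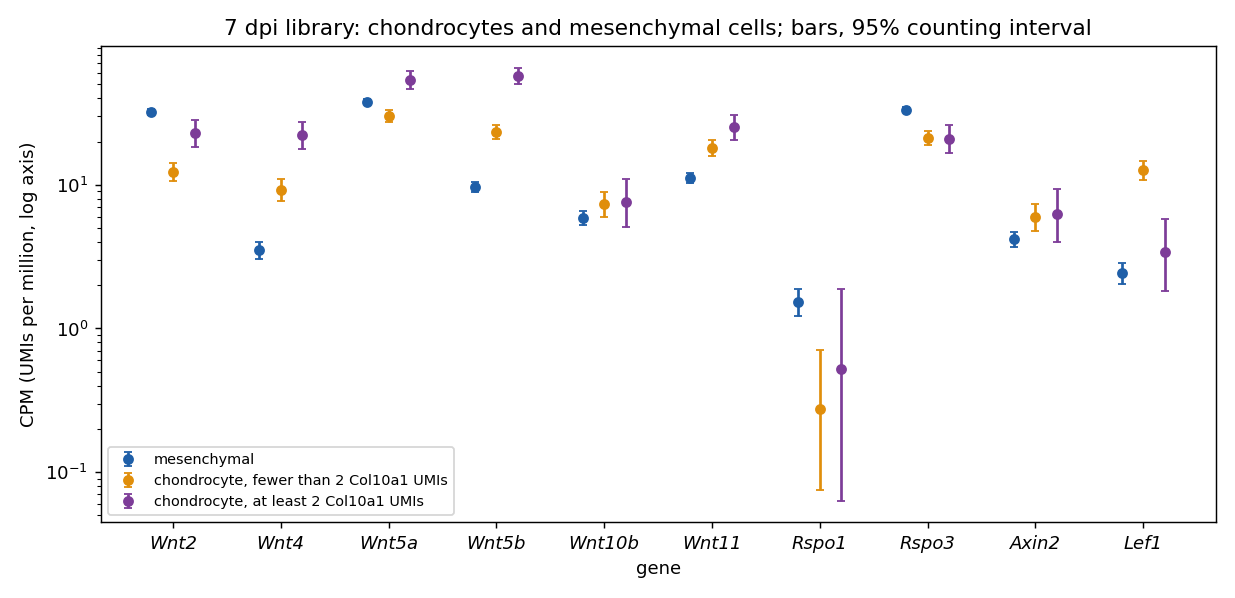
CPM of each member on a log axis at 7 dpi in mesenchymal cells, in hypertrophic chondrocytes (at least 2 Col10a1 UMIs) and in other chondrocytes, with bars for the 95% counting interval. Wnt5b and Wnt4 are highest in hypertrophic chondrocytes, at 57.3 and 22.3 CPM, and Lef1 is highest in the other chondrocytes, at 12.6 CPM.

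Outside the mesenchymal and cartilage cells, Wnt4 was found in muscle stem cells. Satellite cells, gated by Pax7, had Wnt4 at 27.7 CPM (18.6 to 39.8) in uninjured muscle, 64.1 (43.6 to 91.0) at 1 dpi, 14.5 (10.1 to 20.2) at 3 dpi and 15.7 CPM (7.17 to 29.8) at 7 dpi, from 162, 91, 201 and 124 cells. The level at 1 dpi was 2.31-fold (1.35 to 3.98) above uninjured muscle, and that at 3 dpi 4.42-fold (2.64 to 7.38) below 1 dpi. With each satellite cell thinned to 1000 UMIs, Wnt4 was at 30.86, 76.92, 29.85 and 8.13 CPM in the same order. These levels rest on 5, 7, 6 and 1 UMIs. The thinned interval at 1 dpi (30.93 to 158.5) overlapped those of uninjured muscle (10.02 to 72.03) and 3 dpi (10.95 to 64.97). No Wnt4 UMI was counted in the Myog-positive cells of the uninjured, 3 dpi and 7 dpi libraries, 30, 63 and 73 cells, which allows levels up to 9.17, 3.71 and 7.59 CPM. Mural cells of uninjured muscle, the contractile cells of small vessels, had Wnt4 at 25.3 CPM (16.5 to 37.1), and at 3 dpi 46 cells with epithelial markers had it at 216 CPM (169 to 273), though none of those 46 cells fell in a cluster of that class.

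Wnt11 was also counted in myeloid cells. Dendritic cells had Wnt11 at 91.6, 46.4, 21.2 and 33.1 CPM and macrophages at 40.9, 16.2, 13.1 and 18.6 CPM, in the same order of libraries, against 0.601 to 3.998 CPM in mature B, NK and neutrophil cells. Macrophages and dendritic cells were split by a UMI of Cd209a, a lectin of dendritic cells that is also a marker of the dendritic gate. This split was chosen after the values by class had been seen. The cells with Cd209a had Wnt11 at 100.3, 79.5, 40.3 and 70.1 CPM and those without at 26.0, 13.6, 6.87 and 7.37 CPM, ratios of 3.85 (2.79 to 5.40), 5.86 (4.55 to 7.52), 5.86 (4.04 to 8.64) and 9.51 (4.63 to 21.04).

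Mesenchymal markers were not higher in the Cd209a cells. The 8 mesenchymal markers summed to 37.6, 42.6, 86.1 and 192 CPM in myeloid cells with Cd209a and to 82.0, 54.3, 89.4 and 363 CPM in those without, against 4000 to 4783 CPM in mesenchymal cells. In uninjured muscle 45.3% of the Cd209a cells had a Wnt11 UMI (median depth 9158 UMIs).

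Lef1 RNA was counted mostly in lymphocytes. Its level in T cells was at 405 CPM (374 to 439) in uninjured muscle, then 289, 149 and 218 CPM. NK cells had Lef1 at 34.7 to 58.5 CPM.

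In the B lineage Lef1 differed by stage. B cell progenitors, gated by Rag1, Dntt, Vpreb1 or Igll1, had Lef1 at 311 CPM (273 to 354) in 151 cells at 1 dpi and 201 CPM (155 to 255) in 117 cells at 3 dpi. Mature B cells in the same libraries were at 6.52 and 13.6 CPM, 47.7-fold and 14.8-fold lower.

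Axin2 in T cells took a different course from Lef1. Its level was 22.2 CPM (15.3 to 31.2) in uninjured muscle, 46.1 (39.1 to 54.1) at 1 dpi, 54.0 (45.9 to 63.3) at 3 dpi and 21.4 CPM (15.1 to 29.5) at 7 dpi. The libraries at 1 and 3 dpi were thus above both others, with a ratio of 2.08 (1.42 to 3.13) at 1 dpi over uninjured and a 2.53-fold fall (1.76 to 3.72) from 3 to 7 dpi. NK cells, at 4.13 to 7.14 CPM, were below T cells in Axin2, though not below the 1.81 to 4.57 CPM of mesenchymal cells as a range. Mature B cells had 0 or 1 Axin2 UMI in each library.

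**Figure D5:**
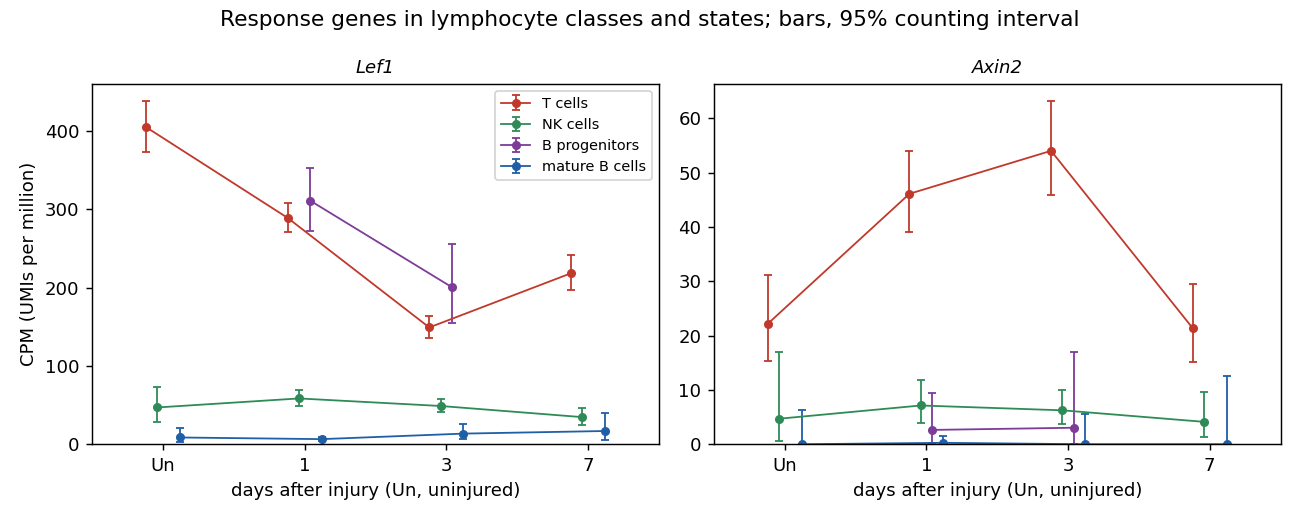
CPM of the response genes in lymphocyte classes and states by library (T cells, NK cells, B progenitors and mature B cells), with bars for the 95% counting interval. Lef1 is high in T cells and B progenitors, and Axin2 in T cells stands at 46.1 and 54.0 CPM at 1 and 3 dpi, above both other libraries.

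The rest of the pathway was read from a list of 60 other genes of ligands, secretion, receptors, R-spondin receptors, intracellular components, TCF factors and response genes. In mesenchymal cells at 1 dpi over uninjured, 2 of the 41 with enough UMIs were past 2-fold higher and 3 lower, beside 8.27% and 4.22% of all genes. Among those lower was Nkd1, an inhibitor induced by Wnt signals, at 4.195 against 10.53 CPM. At 3 over 1 dpi, 7 of 44 were higher and 2 lower, beside 6.00% and 5.47%. The feedback inhibitor Nkd2 was at 10.2 against 4.28 CPM (2.37-fold) and the co-receptor Ptk7 at 3.70 against 1.42 CPM (2.61-fold) in that step. Apcdd1, a Wnt inhibitor listed with the response genes as Nkd2 is, fell 2.02-fold. Of the 6 response genes of the list with enough UMIs, 2 were past 2-fold higher in that step and 2 lower. None of the 11 intracellular components, which include the β-catenin destruction complex, was past 2-fold in any of the 5 comparisons.

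The step from 3 to 7 dpi had the most genes of the list past 2-fold, 12 of 46 higher and 2 lower, and was also the time step with the largest shares over all genes, 10.0% and 6.65%. The ligand Wnt16 was at 13.0 CPM against 1.41 CPM, 9.20-fold higher (7.28 to 11.8), and Ptk7 at 24.7 against 3.70 CPM, 6.69-fold. The R-spondin receptors Lgr4 (33.7 against 12.3 CPM) and Lgr5 (4.55 against 1.67 CPM) and Porcn, the enzyme that adds the lipid to Wnt proteins (14.6 against 5.71 CPM), were also past 2-fold. Of the response genes Nkd1 was at 21.7 CPM, 2.77-fold higher, and Notum, a secreted Wnt inhibitor, at 4.34 CPM, 4.89-fold higher. Fzd6 and Fzd9, both Frizzled receptors, were 3.33-fold and 12.9-fold higher, and the receptors Fzd4 and Ror1 fell 2.45-fold and 2.17-fold. Chondrocytes, gated only at 7 dpi, had Fzd9 at 45.1 CPM, and the part of chondrocyte RNA in its rise was not tested. Tcf7, which T cells also use, was 4.78-fold higher while the summed T cell markers went from 7.77 to 41.6 CPM in the same cells, and the part of this in the result was not tested.

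In chondrocytes over mesenchymal cells at 7 dpi, 2 of 45 genes of the list were past 2-fold higher and 6 lower, beside 4.52% and 6.87% of all genes. Fzd9 was at 45.1 CPM in chondrocytes and 3.51 CPM in mesenchymal cells, 12.9-fold higher (11.02 to 15.1), and Tcf7 2.07-fold higher, with T cell markers at 51.4 and 41.6 CPM. On the low side Wnt16 was 2.93-fold, Fzd4 2.78-fold, Lgr5 2.52-fold and Wnt9a 2.48-fold lower. In adventitial over interstitial cells of uninjured muscle, 4 of 38 were higher and 5 lower, beside 6.25% and 10.8% of all genes. Those higher included Wnt9a (2.13-fold) and Lgr4 (2.06-fold), and those lower included the receptor Ror1 (4.29-fold), the co-receptor Lrp5 (2.80-fold) and Nkd1 (2.14-fold).

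The genes whose levels ran most like each member were found over 48 class-by-library units of at least 50 cells, as Pearson r of log2(CPM + 5), a description over units that share libraries. Wnt5b ran with Rpl39l (r = 0.900), the parathyroid hormone receptor Pth1r (0.888) and Smarca1 (0.878). Wnt11 ran with Dapk1 (0.874), Gng10 (0.802) and Zfp385a (0.799), and Wnt5a with Cygb (0.888), Twist1 (0.883), a gate marker, and Fap (0.875). Wnt2 was closest to Lgi3 (0.894), Duoxa1 (0.894) and Nefm (0.875), and Wnt10b to Rorb (0.835), Islr2 (0.821) and Opcml (0.803). Rspo3 was closest to Gm26771 (0.868), Emx2os (0.868) and Tspan11 (0.849). The response genes were closest to lymphocyte genes, Lef1 to Sidt1 (0.919), Gimap3 (0.911) and Gimap1os (0.896), and Axin2 to the T cell gate markers Trac (0.803) and Bcl11b (0.791) and to Icos (0.799). Wnt4 was closest to Heyl (0.854) and the gate markers Notch3 (0.852) and Des (0.793), and Rspo1, with lower values, to Lamp1 (0.676), Dbi (0.659) and Abhd12 (0.647).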

How the data were processed

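The 4 libraries of tibial muscle cells were deposited by the authors as raw UMI counts per gene and barcode, made with Cell Ranger 5.0.0 (STAR aligner) on mm10, and Seurat 3.1.1 is named in the submitters' processing notes. The protocol also mentions reads being down-sampled, and no source used here says if that came before the deposited matrix. Labels gave each library's time point. Libraries differed in median depth (3049 to 8638 UMIs per kept cell).

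Cells within 2 SD of their library's mean log10 UMIs and genes, with at most 10% mitochondrial UMIs, were kept after the 7.5% highest Scrublet scores per library were removed (scanpy 1.11.5). A cell joined the class with the most markers at 1 UMI or more (at least 3 of 8, and ahead of every other class). CPM ratios were called past 2-fold either way among genes with at least 50 UMIs over both sides, a count of 0 being set at a floor of 3 UMIs. Intervals are exact Poisson, Clopper-Pearson and conditional binomial (scipy 1.17.1). The counting of ratios was tested on simulated data. The genes named outside the members were those of the pathway list past 2-fold with at least 200 UMIs, and the 3 most like each member. Members and lists were chosen with earlier results of these data known. Alternatives were a stricter gate, clusters, other cell filters, thinning to 1000 UMIs, centring and other UMI minimums. A planned split of T cells by state is not reported here.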

Additional observations from a re-analysis of the deposited data

Results flagged for a closer look

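Both genes here went opposite ways in the adventitial and the interstitial state of the mesenchymal class between the same libraries, and the difference between the states was not tested, since each time point is 1 library. The CPM ratio of Rspo3 at 7 over 3 dpi was 0.64 in adventitial and 2.16 in interstitial cells, and at 7 dpi over uninjured muscle 0.509 and 1.92. These ratios of Rspo3 share the 7 dpi library. The CPM ratio of Wnt5b at 7 dpi over uninjured muscle was 0.645 in adventitial cells, from 34 and 362 UMIs, and 4.01 in interstitial cells, from 61 and 79 UMIs.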

How the results depend on the processing

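Of 39 log2 ratios of members, 258 values were recomputed under the alternatives: 215 stayed within the reported counting interval, 43 left it, 12 crossed 2-fold, and 16 changed sign, each of the latter from a reported log2 ratio of at most 0.25 in size. Crossing was judged on log2 ratios rounded to 2 decimals, so it need not match the calls of members past 2-fold. Rspo1 at 7 over 3 dpi, at 1.00 as rounded, is among the 12 though it was not called. The number of members past 2-fold moved beyond a set tolerance as follows. Smaller changes in a count, such as from 3 to 2 or from 4 to 3 members, are not listed. For 1 dpi over uninjured, 0 members were higher as reported and 1 with doublets kept, 1 with no cell filter and 1 at a minimum of 10 UMIs. For 3 over 1 dpi, 2 were lower as reported, 1 with doublets kept, 1 with the 2 SD limits on linear counts, 0 after thinning and 0 after centring on the median of all genes, and 1 was higher as reported and 0 after thinning. For 7 over 3 dpi, 4 were higher as reported and 2 after thinning, and 0 were lower as reported and 1 (Wnt11, log2 ratio −1.22) after thinning. For chondrocytes over mesenchymal cells, 2 were lower as reported and 1 with linear limits, 1 after thinning, 1 after centring and 1 at a minimum of 200 UMIs. Thinning leaves fewer UMIs, so genes with few UMIs drop under the minimum; otherwise the cause was not tested. Thinning brought the log2 ratio of Rspo3 at 7 over 3 dpi from 1.39 to 0.95 and that of Lef1 in chondrocytes from 2.14 to 0.64. Wnt2 in chondrocytes was at −1.15 as reported and at −0.85 with linear limits. Without cells that held a T cell marker UMI, an alternative added after the data were seen, Lef1 was at 2.79 in chondrocytes over mesenchymal cells and at 2.99 for mesenchymal cells at 7 over 3 dpi, against 2.14 and 2.11. No paired analysis was possible because each group is 1 library and the results come from no test, and for the same reason no library could be left out.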
